A study of Mus musculus with 4 samples.

Results

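Mitotic spindle, kinetochore and cytokinesis genes were examined in mouse cells labelled as primary lung fibroblasts. The list of 45 genes was drawn up with earlier results of these data known. The genes were taken by name from the deposited expression table, without a filter on values, and all 45 were found among its 54532 rows. They encode the kinases and cyclins of mitosis (6 genes), spindle checkpoint and anaphase regulators (7), centromere and kinetochore proteins (8), the chromosomal passenger complex (4), spindle motors and assembly factors (7), central spindle and cytokinesis proteins (5), and condensin subunits with topoisomerase II alpha (6). The proliferation marker Mki67 and the transcription factor gene Foxm1 complete the set. The comparison asks how transcripts of cell division differ when Calu, the gene the series is about, is targeted.

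Of the 4 RNA sequencing libraries, 2 carried the genotype Calu-WT (WT below) and 2 the genotype Calu-KO. The product of Calu is calumenin, which binds calcium in the secretory pathway. Strain, age, treatment, passage and the way Calu was targeted were not stated in the labels, and the titles of the Calu-KO samples read KD. Nothing ties the libraries of a group to different animals or cultures. The spread on which the p-values rest is therefore that between these libraries and may be technical. Calu (chromosome 6, 29348069 to 29377110, mm10) was measured at 178 and 177 FPKM in WT replicates 1 and 2, and at 14.9 and 10.9 FPKM in Calu-KO replicates 1 and 2. FPKM is a fragment count scaled to gene length and to library size. Values below are given in the same order, replicate 1 before replicate 2.

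Recovered reads numbered 15635448 to 16510048 per library, and each of the 45 genes had 486 to 37024 reads in every library. Calu-KO replicate 2 stood apart. Its correlation with the WT libraries over tested genes, on the log2 scale, was 0.938 and 0.939, against 0.964 with both for Calu-KO replicate 1, and the WT libraries correlated at 0.989 with each other. The library size implied by its FPKM values was 14612160.7, against 16372792.2 to 16907550.3 in the others, although 16038560 reads were recovered from it. It was the only library with an implied size below its recovered reads, so its FPKM values were scaled up relative to the others. The order of the Calu-KO libraries below is given on that scale. Genes with reads numbered 18739 in Calu-KO replicate 2, against 19772 to 20477 in the others. Mitochondrial genes took 4.002% of its reads and 2.43% to 2.53% of the reads of the others. Results are therefore also given for each Calu-KO library alone.

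Of 12 fibroblast markers, 7 were at 1 FPKM or more in every library, and their summed level was 1180 to 1187 FPKM in WT and 1150 to 1402 FPKM in Calu-KO. The members of this sum did not move together, with Col3a1 at 38.9 and 39.4 against 11.9 and 12.2 FPKM and Col1a2 at 234 and 229 against 343 and 394 FPKM. Dcn, Lum, Tcf21 and Fgf10, which mark lung or connective-tissue fibroblasts, had no reads in any library, so the lung origin rests on the labels. Leukocyte and macrophage markers (3 of 7 at 1 FPKM or more) summed to 16.0 and 17.1 FPKM in WT and 7.63 and 6.56 FPKM in Calu-KO, with Adgre1 and Itgam at no reads. Pericyte and smooth muscle markers (2 of 6) summed to 37.4 to 39.2 FPKM in WT and 48.6 to 58.2 FPKM in Calu-KO. Mcam was higher in both Calu-KO libraries (2.42 and 2.77 against 18.4 and 13.0 FPKM), whereas Cspg4 overlapped (36.7 and 34.5 against 30.1 and 45.2 FPKM). Mesothelial markers (1 of 5) summed to 30.4 to 33.1 FPKM in WT and 22.5 to 25.3 FPKM in Calu-KO. Epithelial markers (0 of 7) summed to 3.17 and 3.38 FPKM in WT and 0.446 and 0.213 FPKM in Calu-KO, and endothelial markers (0 of 6) to at most 0.276 FPKM in any library. The part of these markers in the results below was not tested.

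Cells entering mitosis activate Cdk1 with B-type cyclins, condense their chromosomes, and attach sister chromatids to spindle microtubules through kinetochores. The spindle checkpoint holds the anaphase-promoting complex inactive until attachment is complete. Cdc20 then turns it on, securin and cyclin B are degraded, the sisters separate, and the central spindle positions the cleavage furrow. Transcripts of most of these proteins accumulate together in G2 and mitosis and are low in resting cells. In bulk RNA, fewer dividing cells and less of these transcripts per dividing cell cannot be told apart.

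Many G2 and mitosis promoters hold a CHR (cell cycle genes homology region), the site at which the MuvB core of the DREAM, B-Myb and FoxM1 complexes contacts DNA, together with CCAAT boxes, the sites of NF-Y. The stretches below come from 6 members, of which 5 show both kinds of site and Ncapg shows a CHR alone. They were chosen because Top2a, Kif11 and Ncapg were higher in Calu-KO replicate 2 than in replicate 1, whereas Cdk1, Cdc20 and Ube2c were lower. Each is the stretch from 100 bases before the transcription start to 1 base before it, read 5′ to 3′ on the gene's strand, from RefSeq on GRCm38.p6. They lie at chr11:99024190-99024289 (minus strand), chr19:37376282-37376381 (plus), chr5:45669825-45669924 (plus), chr10:69352913-69353012 (minus), chr4:118437344-118437443 (minus) and chr2:164769829-164769928 (plus), in the order printed. Capitals mark CHR letters (TTTGAA or TTCGAA) and CCAAT, on either strand, so that TTCAAA and ATTGG are the same motifs on the other strand.
Top2a: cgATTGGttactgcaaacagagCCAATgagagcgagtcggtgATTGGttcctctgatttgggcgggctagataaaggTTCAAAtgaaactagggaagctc
Kif11: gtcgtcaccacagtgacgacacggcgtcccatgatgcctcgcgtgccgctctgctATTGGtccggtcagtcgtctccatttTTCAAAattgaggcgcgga
Ncapg: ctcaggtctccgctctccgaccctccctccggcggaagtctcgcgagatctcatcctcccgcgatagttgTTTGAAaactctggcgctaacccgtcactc
Cdk1: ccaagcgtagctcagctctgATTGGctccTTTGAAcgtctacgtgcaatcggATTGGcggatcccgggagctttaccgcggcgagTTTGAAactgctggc
Cdc20: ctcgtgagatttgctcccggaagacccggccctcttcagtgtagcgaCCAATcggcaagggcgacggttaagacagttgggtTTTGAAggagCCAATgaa
Ube2c: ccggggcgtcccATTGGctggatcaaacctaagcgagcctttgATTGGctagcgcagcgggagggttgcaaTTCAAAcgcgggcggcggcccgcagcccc

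All 6 stretches held a CHR, starting at -23 in Top2a, -19 in Kif11, -30 in Ncapg, -18 in Cdc20, -29 in Ube2c, and at -71 and -15 in Cdk1, counted from the transcription start. RefSeq promoters, running from 250 bases before to 50 bases after the start, were matched for 37 of the 45 members. Ccna2, Spc24, Aurkb, Incenp, Tpx2, Kif20a, Smc4 and Foxm1 were not matched.

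A CHR was found in 29 of the 37 promoters (78.4%), against 21.7% of all 27025 genes with a promoter of the same length. Shares were taken per gene, and a match in any promoter listed for a gene counted. At least 1 CCAAT was present in 27 (73.0%, against 41.1%), and 2 or more in 19 (51.4%, against 13.3%). Both kinds of motif occurred in 25 promoters (67.6%, against 9.65%), and neither in 6 (16.2%, against 46.9%). CCAAT boxes on the same strand with starts 31 to 34 bases apart, about 3 turns of the helix, were present in 7 (18.9%, against 1.04%). These were Ccnb1 (-99 and -67), Ccnb2 (-87, -54 and -21), Cdk1 (-80 and -48), Aurka (-51 and -19), Cdca8 (-85 and -51), Spc25 (-55 and -23) and Ube2c, which held both -88 with -57 and -186 with -155. Among 88 promoters of other mitosis genes, 44 held a CHR and 55 a CCAAT (62.5%). Among 35 promoters of DNA replication genes, 7 held a CHR and 21 a CCAAT. A match is a description of letters, and the motifs were searched separately, so that a base may count for both.

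**Figure D1:**
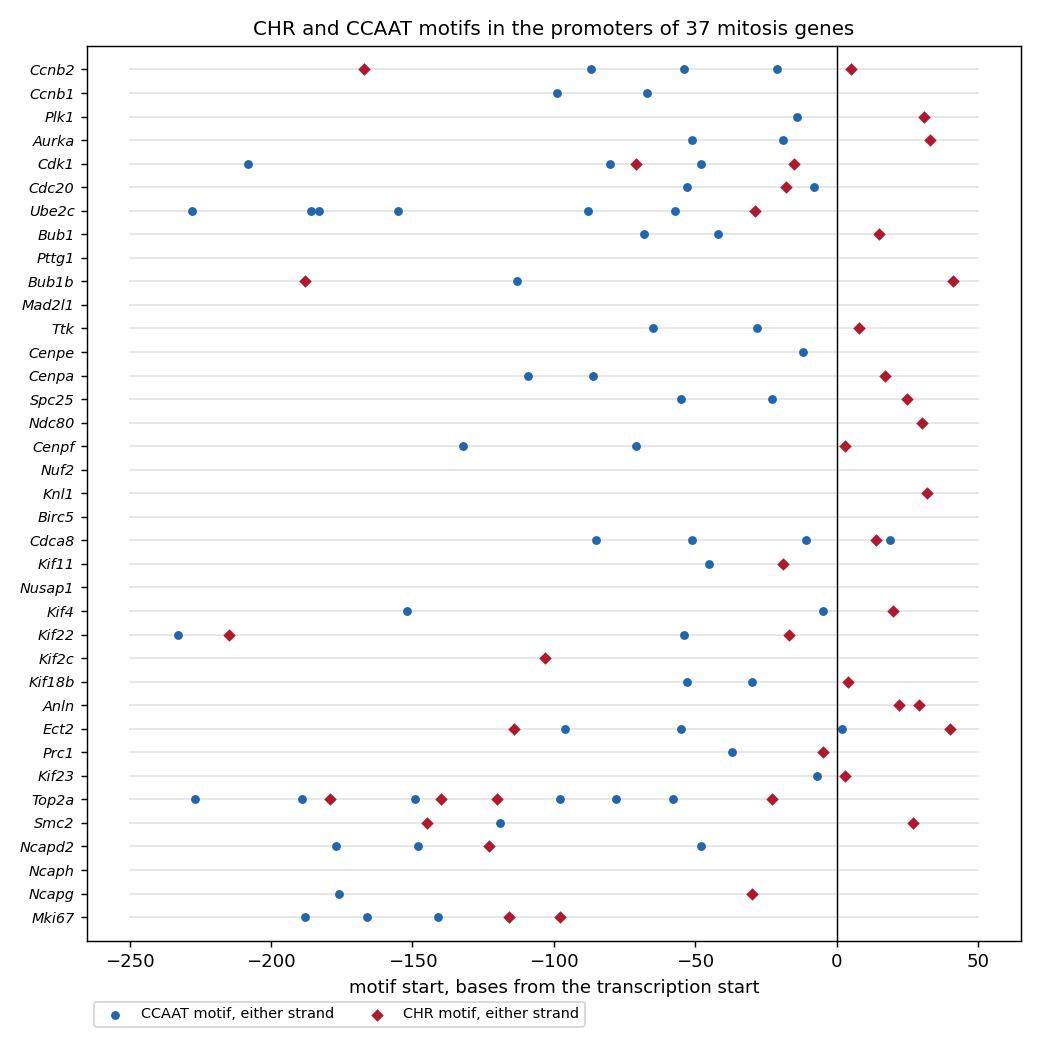
Start of each CHR (red diamonds) and CCAAT (blue circles) on either strand in the 37 matched promoters, in bases from the transcription start (vertical line at 0). A CHR is present in 29 promoters and a CCAAT in 27, and 6 hold neither.

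In WT the 45 genes ranged from 11.4 FPKM (Ttk) to 108.3 FPKM (Top2a), with a median of 30.7 FPKM. Their reads made up 0.900% and 0.920% of the WT libraries, and 1.15% and 1.26% of the Calu-KO libraries. The summed level was 1666 and 1725 FPKM in WT, and 2073 and 2297 FPKM in Calu-KO. Both Calu-KO libraries thus held more transcript of the set than either WT library. FPKM here divides by a gene length that equalled the summed exons of GENCODE M21 in 42 members. It was smaller than that sum in Incenp, Kif11 and Kif20a. This length exceeded that of the main coding transcript in most members (5860 against 1466 bases for Cenpa) and was at least 2 times it in 11. Levels of such genes are understated relative to the others.

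No member passed the test of Calu-KO against WT over all 11885 tested genes (limma on log2(FPKM + 1), adjusted p under 0.05). The lowest adjusted p was 0.0746, for Foxm1. Over all tested genes 0.942% were called higher and 1.83% lower. At an unadjusted p under 0.05, 18 of the 45 members were higher and 0 lower, where the background was 12.0% and 12.7%. The log2 change was above 0 in 36 members and below 0 in 9, where 50.7% of all tested genes were above 0. Its median was 0.26 in the members and 0.0072 over all tested genes. With the columns rescaled by total reads instead of as deposited, 29 members were above 0 and 16 below, around a median of 0.15 (all tested genes -0.088).

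Both Calu-KO libraries lay above both WT libraries in 29 members (background 32.0%), and both lay below in 1, Pttg1 (background 29.7%). In the other 15 the groups overlapped. Rescaled by total reads, 24 lay above and 4 below, for which the shares of all tested genes were not computed. On the deposited scale the Calu-KO libraries had similar medians, and differed gene by gene. Medians of each library alone were not computed after rescaling. Replicate 1 lay above both WT libraries in 39 members (background 43.8%) and below in 3 (background 41.6%), with a median log2 difference of 0.27. Replicate 2 lay above in 32 (background 46.1%) and below in 11 (background 44.2%), with a median of 0.25. Differences between the WT libraries spanned -0.10 to 0.23 (log2), and those between the Calu-KO libraries -0.86 to 0.76. Replicate 2 exceeded replicate 1 in 25 members and was lower in 20 (background 52.5% higher).

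**Figure D2:**
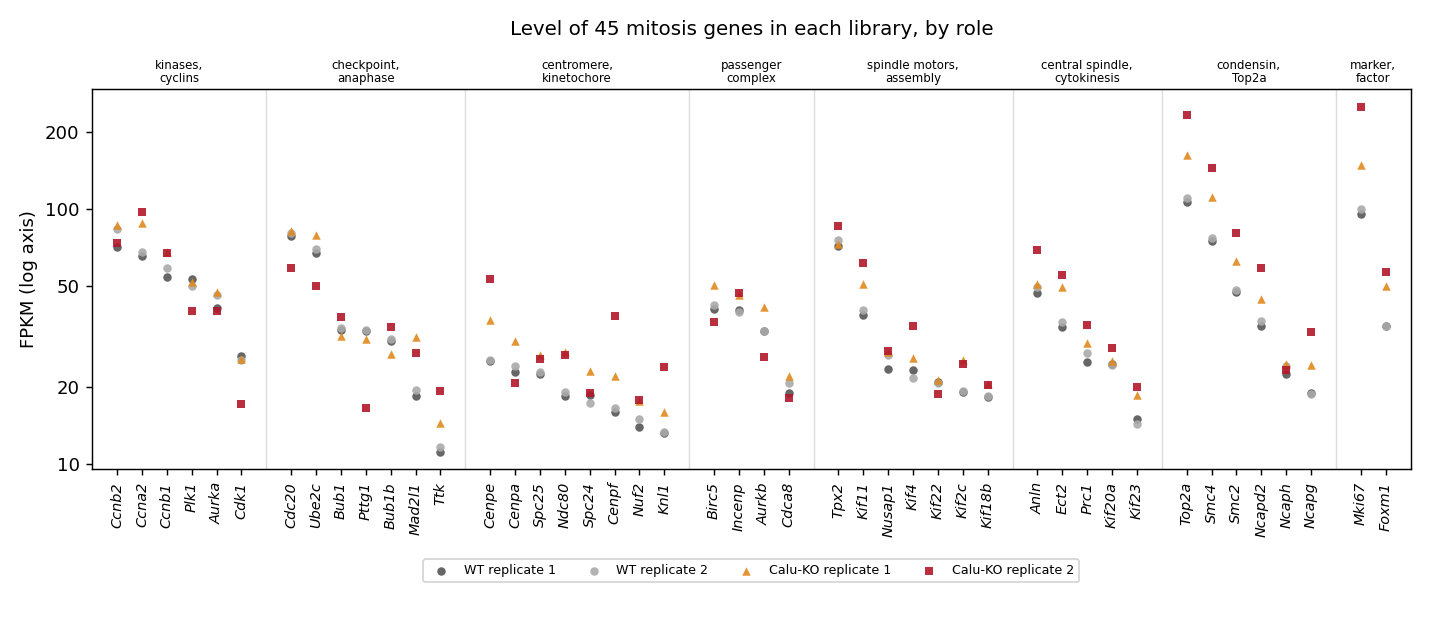
Level of each of the 45 genes in FPKM (log axis) in WT replicate 1 (dark grey circles), WT replicate 2 (light grey circles), Calu-KO replicate 1 (orange triangles) and Calu-KO replicate 2 (red squares), grouped by role. On log2(FPKM + 1), a scale not drawn here, the WT libraries differ by up to 0.23 and the Calu-KO libraries by up to 0.86, for Pttg1.

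Among the 6 mitotic kinases and cyclins, only the groups of Ccna2 and Ccnb1 were separated. That share, 33.3%, was near the 32.0% of all tested genes separated upward. Ccna2, the cyclin of S phase and mitotic entry (chromosome 3, 36564865 to 36572150), was measured at 65.5 and 68.0 FPKM in WT and at 87.9 and 97.4 FPKM in Calu-KO. Its log2 change was 0.47 ± 0.11 (SE), with an adjusted p of 0.104. Ccnb1, the main mitotic partner of Cdk1, stood at 54.3 and 58.6 FPKM against 68.0 and 67.3 FPKM (log2 change 0.26, adjusted p = 0.222). Both cyclins were higher in each Calu-KO library.

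Cdk1, the kinase that drives mitotic entry (chromosome 10, 69335146 to 69352938), was at 26.6 and 25.6 FPKM in WT and 25.8 and 17.2 FPKM in Calu-KO. Only replicate 2 lay apart, so that cyclin B1 and its kinase went different ways there. The ratio of Ccnb1 to Cdk1 was 2.04 and 2.29 in WT, 2.63 in Calu-KO replicate 1 and 3.91 in replicate 2. Plk1, the Polo kinase of centrosome maturation and anaphase, showed the same shape as Cdk1, with 53.2 and 49.7 FPKM in WT and 51.9 and 39.7 FPKM in Calu-KO. Aurka, the centrosomal Aurora kinase, had 41.1 and 46.2 FPKM against 47.1 and 39.8 FPKM. Ccnb2 had 70.7 and 83.4 FPKM against 86.9 and 73.4 FPKM, and its groups overlapped. Of the 6 log2 changes 3 were above 0 and 3 below, around a median of 0.02.

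Checkpoint and anaphase genes were divided. Mad2l1, the checkpoint protein that binds and inhibits Cdc20 (chromosome 6, 66535390 to 66547220), was at 18.5 and 19.5 FPKM in WT and 31.4 and 27.4 FPKM in Calu-KO (log2 change 0.60 ± 0.12, SE; adjusted p = 0.0773). Ttk, the Mps1 kinase that starts checkpoint signalling, was at 11.2 and 11.6 FPKM against 14.5 and 19.4 FPKM (log2 change 0.52 ± 0.16, adjusted p = 0.148). These were the 2 of 7 separated upward, a share (28.6%) near the 32.0% of all tested genes. Bub1 (33.5 and 34.1 against 31.8 and 37.8 FPKM) and Bub1b, the BubR1 checkpoint subunit (30.4 and 30.98 against 27.1 and 34.3 FPKM), were below WT in replicate 1 and above WT in replicate 2.

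The regulators of anaphase showed the opposite order of the Calu-KO libraries. Cdc20, the activator of the anaphase-promoting complex (chromosome 4, 118432901 to 118437352), was at 78.0 and 80.6 FPKM in WT, 82.3 FPKM in Calu-KO replicate 1 and 58.9 FPKM in replicate 2. Ube2c, its ubiquitin-conjugating enzyme (chromosome 2, 164769898 to 164778822), was at 67.4 and 69.5 FPKM in WT, then 79.0 and 50.1 FPKM. Pttg1, the securin that holds separase inactive (chromosome 11, 43420250 to 43426251), was at 33.3 and 33.7 FPKM in WT, then 31.1 and 16.6 FPKM. All 3 were lowest in Calu-KO replicate 2. Pttg1 had the most negative change of the 45 genes, a log2 change of -0.54 ± 0.29 (SE, adjusted p = 0.307), of which -0.10 was seen in replicate 1 and -0.97 in replicate 2.

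All 8 centromere and kinetochore genes had log2 changes above 0 (median 0.39). Of them 7 were separated upward (87.5%, against 32.0% of all tested genes). The Ndc80 complex makes the end-on microtubule contact. Ndc80 itself (chromosome 17, 71496100 to 71526857) was at 18.5 and 19.2 FPKM in WT and 27.5 and 26.7 FPKM in Calu-KO (log2 change 0.50 ± 0.10, SE; adjusted p = 0.0808). Its partner Nuf2 was at 14.0 and 15.1 against 17.8 and 17.8 FPKM (log2 change 0.27, adjusted p = 0.203). The Calu-KO libraries were close to each other for both. Spc24 (18.6 and 17.5 against 23.2 and 19.0 FPKM) and Spc25 (22.6 and 22.9 against 26.7 and 25.9 FPKM), the subunits that face the centromere, were also separated, with log2 changes of 0.21 and 0.20.

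The 3 kinetochore genes with the longest coding sequences had the group's largest changes. Cenpe, the kinesin that carries chromosomes to the spindle equator (chromosome 3, 135212537 to 135273611), was at 25.4 and 25.6 FPKM in WT and 36.8 and 53.4 FPKM in Calu-KO (log2 change 0.77 ± 0.19, SE; adjusted p = 0.108). Cenpf, a protein of the outer kinetochore (chromosome 1, 189640606 to 189688086), was at 16.0 and 16.6 against 22.2 and 38.1 FPKM, a log2 change of 0.80 ± 0.26 (adjusted p = 0.158). Knl1, the scaffold that recruits the Bub proteins, was at 13.3 and 13.4 against 16.0 and 23.9 FPKM (log2 change 0.52, adjusted p = 0.201). In all 3 the excess over WT in replicate 2 was at least 2 times that in replicate 1 on the log2 scale. Cenpa, the histone H3 variant that marks centromeres, was at 23.1 and 24.2 FPKM in WT and 30.3 and 20.7 FPKM in Calu-KO, and its groups overlapped.

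The chromosomal passenger complex corrects wrong attachments and later acts in cytokinesis. Of its 4 genes, only Incenp, the scaffold subunit, was separated, at 40.2 and 39.4 FPKM in WT and 46.2 and 47.0 FPKM in Calu-KO (log2 change 0.22, adjusted p = 0.252). The share separated upward was 25.0%, against 32.0% of all tested genes. Aurkb, the kinase, was at 33.3 and 33.3 FPKM in WT, 41.2 FPKM in Calu-KO replicate 1 and 26.4 FPKM in replicate 2. Birc5, or survivin, followed the same order with 40.6 and 42.0 against 50.2 and 36.0 FPKM. Cdca8, or borealin, was at 19.0 and 20.8 against 22.2 and 18.2 FPKM. The 3 small subunits were thus above both WT libraries in one Calu-KO library and below both in the other, and the median log2 change of the complex was 0.03. The ratio of Incenp to Aurkb was 1.21 and 1.18 in WT, 1.12 in Calu-KO replicate 1 and 1.78 in replicate 2.

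Spindle motors and assembly factors had a median log2 change of 0.15, with 5 of 7 separated upward (71.4%, against 32.0% of all tested genes). Kif11, the Eg5 motor that pushes spindle poles apart (chromosome 19, 37376403 to 37421859), was at 38.4 and 40.1 FPKM in WT and 50.8 and 61.3 FPKM in Calu-KO (log2 change 0.50 ± 0.13, SE; adjusted p = 0.119). Kif2c, the microtubule depolymerase MCAK, was at 19.1 and 19.4 against 25.5 and 24.7 FPKM (log2 change 0.37, adjusted p = 0.130). Kif4, a chromokinesin, was at 23.4 and 21.7 against 26.1 and 34.7 FPKM (log2 change 0.40, adjusted p = 0.213). These 3 had the group's largest changes. Kif18b (18.4 and 18.5 against 20.5 and 20.5 FPKM) and the microtubule bundler Nusap1 (23.7 and 26.8 against 27.5 and 27.7 FPKM) were separated by little, with log2 changes of 0.15 and 0.13. Tpx2, which activates Aurora A on the spindle, was the most abundant at 71.8 and 75.5 against 73.1 and 85.4 FPKM, and overlapped. The chromokinesin Kif22 had 21.1 and 20.8 against 21.5 and 18.8 FPKM.

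All 5 central spindle and cytokinesis genes were separated upward, against 32.0% of all tested genes (median log2 change 0.30). On the deposited scale all 5 were higher in Calu-KO replicate 2 than in replicate 1. Recovered reads in Calu-KO replicates 1 and 2 were 4512 and 4332 for Ect2, 2485 and 2315 for Kif23 and 1623 and 1590 for Kif20a. They were 4147 and 4222 for Prc1 and 7783 and 9165 for Anln, from libraries of 16510048 and 16038560 recovered reads. Ect2, the exchange factor that activates RhoA at the furrow (chromosome 3, 27097222 to 27153878), was at 34.5 and 36.0 FPKM in WT and 49.5 and 55.0 FPKM in Calu-KO (log2 change 0.55 ± 0.11, SE; adjusted p = 0.0802). Kif23, the motor subunit of centralspindlin, was at 15.0 and 14.4 against 18.6 and 20.1 FPKM (log2 change 0.37, adjusted p = 0.136). Prc1, which bundles the central spindle, was at 25.1 and 27.3 against 29.8 and 35.1 FPKM (log2 change 0.30, adjusted p = 0.234). Anln, the anillin of the contractile ring, was at 47.0 and 49.4 against 50.8 and 69.2 FPKM (log2 change 0.29, adjusted p = 0.337). The kinesin Kif20a had the smallest change, with 24.8 and 24.4 against 25.3 and 28.7 FPKM (log2 change 0.13). For Anln and Kif20a replicate 1 was close to WT.

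Condensin and topoisomerase II compact and untangle chromosomes, and their genes had the highest median change of the groups with more than 2 members, at 0.56. Top2a (chromosome 11, 98992943 to 99024189) was at 107 and 109.9 FPKM in WT and 162 and 234 FPKM in Calu-KO, means of 108.3 ± 2.24 and 198 ± 50.8 FPKM (SD, n = 2 each). Its log2 change was 0.84 ± 0.20 (SE, adjusted p = 0.0958). Smc4, a core ATPase of condensin (chromosome 3, 69004738 to 69034623), was at 75.0 and 77.2 against 111 and 145 FPKM, a log2 change of 0.73 ± 0.16 (adjusted p = 0.0888). Its partner Smc2 was at 47.2 and 48.3 against 62.5 and 80.3 FPKM (log2 change 0.56, adjusted p = 0.123). In each of these, replicate 2 exceeded replicate 1 and both exceeded WT.

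The condensin I subunits Ncapd2 (34.8 and 36.5 against 44.6 and 58.5 FPKM) and Ncapg (19.1 and 18.8 against 24.5 and 33.0 FPKM) had log2 changes of 0.51 and 0.56. Ncaph, the kleisin that closes the same ring, was at 22.6 and 24.3 against 24.7 and 23.4 FPKM, and its groups overlapped (log2 change 0.03). Subunits of 1 complex therefore differed in their values.

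Mki67, the Ki-67 protein that coats mitotic chromosomes (chromosome 7, 135689784 to 135716361), had the greatest change of the 45 genes. It was at 95.9 and 99.8 FPKM in WT, 149 FPKM in Calu-KO replicate 1 and 252 FPKM in replicate 2, a ratio of mean FPKM of 2.05 and a log2 change of 0.98 ± 0.26 (SE, adjusted p = 0.117). Foxm1, which encodes a transcription factor of G2 and mitosis genes (chromosome 6, 128362967 to 128376146), was at 34.7 and 34.8 FPKM in WT and 49.9 and 56.8 FPKM in Calu-KO. Its log2 change was 0.60 ± 0.12 (adjusted p = 0.0746). The Calu-KO libraries lay closer together for Foxm1 than for Mki67.

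**Figure D3:**
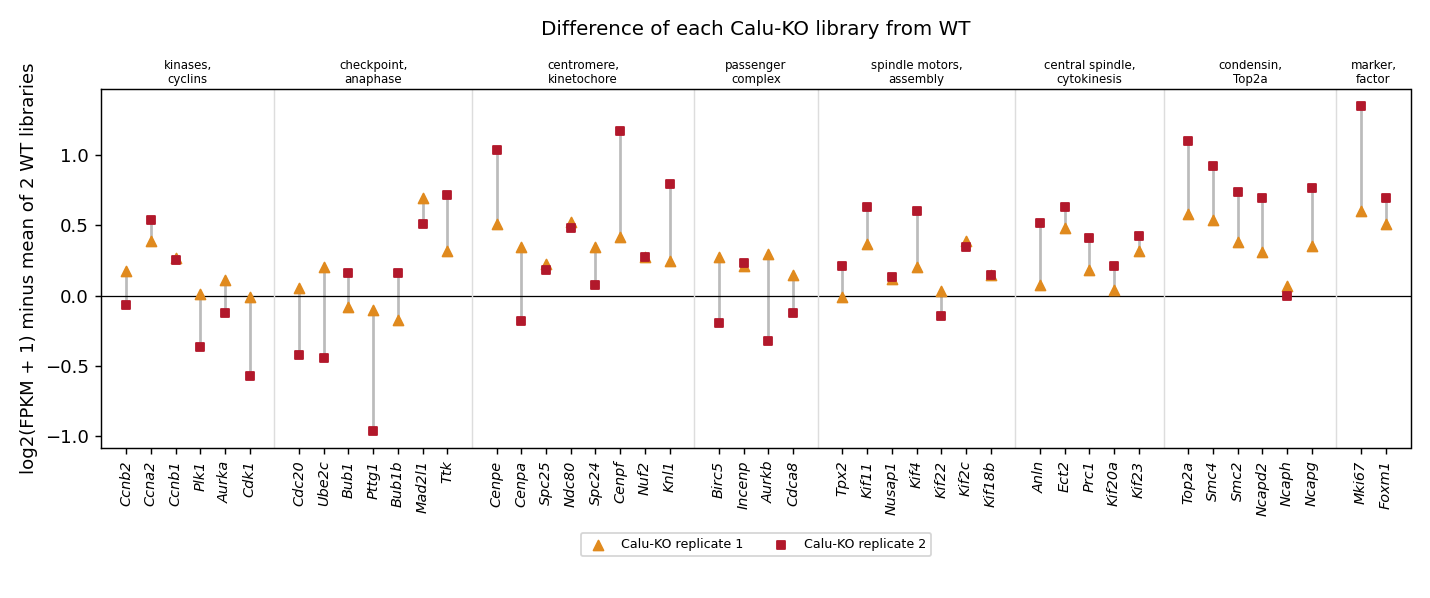
Difference of log2(FPKM + 1) between each Calu-KO library and the mean of the 2 WT libraries, for the 45 genes by role (orange triangles, replicate 1; red squares, replicate 2; grey lines join the pair). Central spindle, condensin and kinetochore genes lie mostly above 0 in both. In replicate 2, 13 members lie below 0, namely Cdk1, Ccnb2, Plk1, Aurka, Cdc20, Ube2c, Pttg1, Cenpa, Aurkb, Birc5, Cdca8, Kif22 and Ncaph.

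The difference between the Calu-KO libraries followed the coding length of the genes. Over the 45 members, Spearman's rho between coding length and the log2 difference of replicate 2 minus replicate 1 was 0.898 (Pearson's r 0.868 with log2 length). This is a correlation across genes that share the same 4 libraries, and genes are not independent replicates. With the difference of replicate 1 from WT, rho was 0.262, and with that of replicate 2 from WT 0.781. Replicate 1 also moved with other measures, since its difference from WT had a rho of 0.539 with the gene length used for FPKM, 0.383 with transcript length and -0.416 with transcript GC content. Between the WT libraries, rho with coding length was -0.177. The trend was not limited to mitosis genes. Over 10183 tested genes with a coding transcript, rho for replicate 2 minus replicate 1 was 0.526 (0.614 with transcript length, against 0.812 in the members), over other mitosis genes 0.737 (n = 103) and over DNA replication genes 0.623 (n = 44). Transcript GC content moved with it as well (rho -0.511 in the members).

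None of the 9 members under 1000 coding bases was higher in replicate 2 than in replicate 1, with a median log2 difference of -0.47 (all genes of that length -0.17). Of the 12 from 1000 to 2000 bases 4 were higher (median -0.11, all genes 0.02), and of the 10 from 2000 to 3000 bases 7 were (median 0.13, all genes 0.17). All 14 of at least 3000 bases were higher, with a median of 0.40 (all genes 0.32). The comparison with WT carried the same gradient, since 3 of the 9 shortest and 12 of the 14 longest members were separated upward, where the shares of all genes in these classes were 20.7% and 51.1%. Replicate 1 alone differed less between the classes, with median differences from WT of 0.23, 0.18, 0.27 and 0.36 from shortest to longest, against -0.18, 0.03, 0.29 and 0.75 for replicate 2.

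Ratios between members chosen for unlike length, a description only, differed little between the WT libraries and were highest in Calu-KO replicate 2. Mki67, with 9531 coding bases, was 1.23 and 1.24 times Cdc20, with 1497, in the WT libraries, then 1.81 times in Calu-KO replicate 1 and 4.27 times in replicate 2. The ratio of Top2a (4584 bases) to Ube2c (537 bases) was 1.58 in each WT library, 2.05 in Calu-KO replicate 1 and 4.68 in replicate 2. The ratio of Cenpe (7413 bases) to Cenpa (402 bases) was 1.102 and 1.05 in WT, then 1.21 and 2.57. The 11 members below both WT libraries in replicate 2 had 402 to 1980 coding bases. Beyond the trend removal described next, the part of length and GC content in the mitosis values was not tested.

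**Figure D4:**
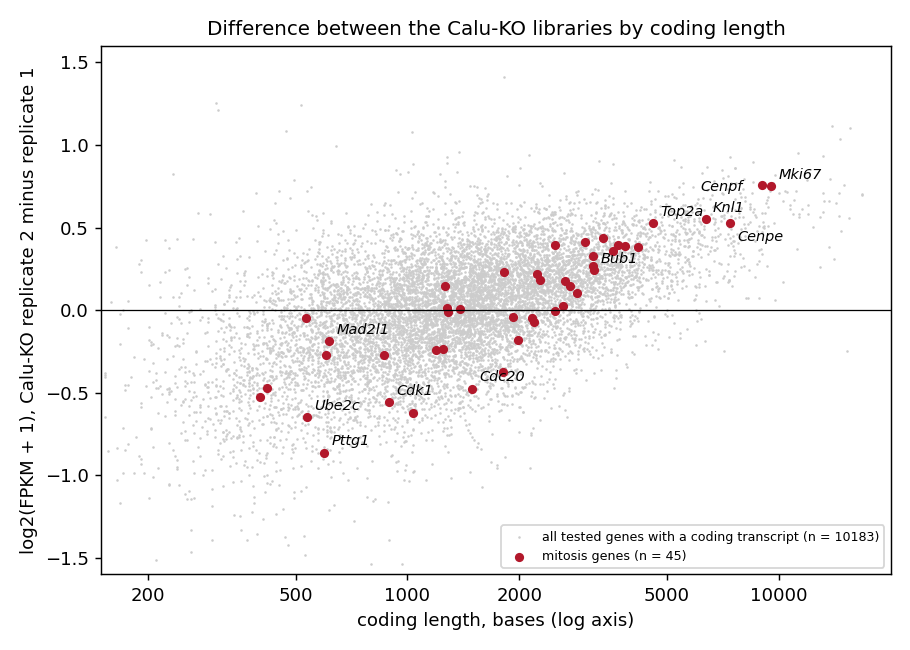
Difference of log2(FPKM + 1) between Calu-KO replicate 2 and replicate 1 against coding length in bases (log axis), for the 45 mitosis genes (red) and 10183 tested genes with a coding transcript (grey; 16 genes lie outside the axes). All 14 members of at least 3000 bases lie above 0 and all 9 under 1000 bases lie below 0.

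When smooth trends on transcript length and GC content were removed from each library, an alternative added after the data were seen, 38 of the 45 log2 changes were above 0, with a median of 0.22 and a range of -0.42 to 0.72. Both Calu-KO libraries then lay above both WT libraries in 29 members (background 32.5%) and below in 3 (background 32.1%). In that fit 11 members were called higher (Foxm1, Ndc80, Mki67, Cenpe, Top2a, Smc4, Spc24, Kif2c, Ccna2, Ncapd2 and Ect2) and 0 lower, where 6.32% and 8.21% of the genes in it were called. Foxm1 had the lowest adjusted p there, 0.012, with a log2 change of 0.57. Mad2l1 went from 0.60 to 0.28 and Mki67 from 0.98 to 0.72. Spc24 went the other way, from 0.21 to 0.39. The removal was incomplete for the members, whose rho between coding length and the replicate difference was still 0.746.

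**Figure D5:**
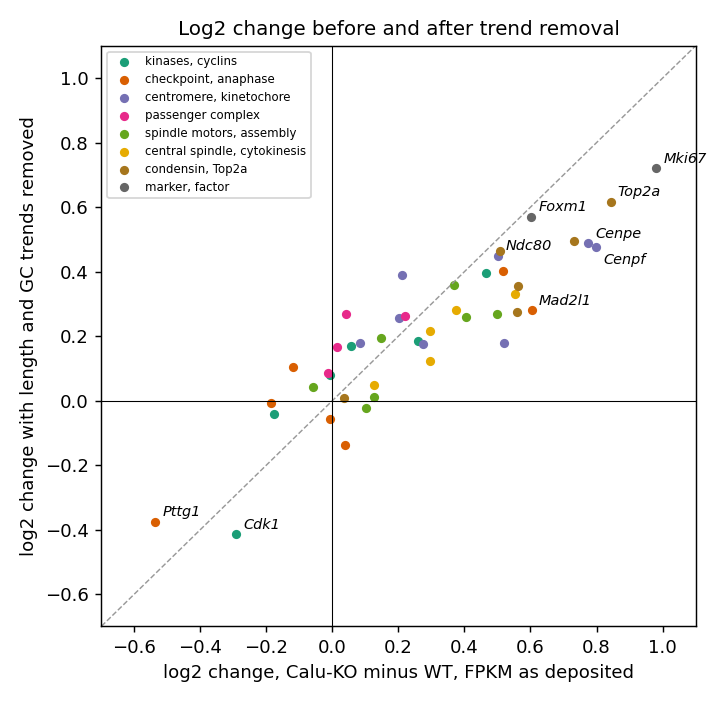
Log2 change of Calu-KO against WT from the deposited values (x axis) and with length and GC trends removed (y axis) for the 45 genes, coloured by role; the dashed line marks equal values. Mki67, Top2a, Cenpe, Cenpf and Mad2l1 lie below the line and above 0, Pttg1 and Cdk1 stay below 0 on both axes.

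Calls also depended on which Calu-KO library was used. With replicate 1 alone against WT, where the spread comes from the WT pair only, 20 members were called higher and 0 lower (background 7.76% and 9.51%). With replicate 2 alone 26 were called higher and 7 lower (Pttg1, Cdk1, Ube2c, Cdc20, Aurkb, Plk1 and Birc5; background 24.6% and 23.6%). Both fits take their spread from the WT pair, whereas the SD of the Calu-KO pair was the larger in 39 of the 45 members (median ratio 7.60). On recovered reads with limma's voom weights, also added later, 6 were called higher and 0 lower (background 3.04% and 3.95%). That fit used the library sizes implied by the FPKM values, so it kept the deposited scaling of Calu-KO replicate 2. Voom with the recovered totals as library sizes was not run. Ect2, Foxm1, Ndc80, Smc4 and Top2a were called higher both with voom and with the trends removed. The share of all tested genes called in both was not computed, and both fits use the same 4 libraries. The main fit called 0 members.

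The wider mitosis programme was described with 103 further genes of a 106-gene list. Of these, 1 was called higher and 0 lower, a share near the 0.942% and 1.83% of all tested genes. At an unadjusted p under 0.05, 28 were higher (background 12.0%), and 79 had a log2 change above 0 (background 50.7%), with a median of 0.19. Ckap2, a spindle-associated protein gene (chromosome 8, 22168160 to 22185819), was the gene called. It was at 29.0 and 29.5 FPKM in WT and 49.5 and 47.7 FPKM in Calu-KO (log2 change 0.71 ± 0.10, SE; adjusted p = 0.0436). The Calu-KO libraries were close for this gene. The call was lost without WT replicate 1 or WT replicate 2, with the replicate block and under 3 other alternatives.

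By function, read against 32.0% of all tested genes separated upward and 29.7% downward, 9 of 13 further checkpoint and separation genes were separated upward and 0 downward (median log2 change 0.18), as were 12 and 3 of 18 further kinetochore genes (median 0.25). The anaphase-promoting complex gave 4 upward and 2 downward of 12 (median 0.14), and genes of mitotic entry 4 and 3 of 12 (median -0.03). Genes of the spindle and centrosome gave 7 and 3 of 16 (median 0.12), of cytokinesis 2 and 0 of 6 (median 0.20), and of mitotic transcription 9 and 0 of 14 (median 0.20). The upward shares of the anaphase-promoting complex, mitotic entry and cytokinesis groups, each 33.3%, were near that of all genes. The most abundant gene of each group was Fbxo5, Hjurp, Anapc5, Cks1b, Tacc3, Racgap1 and Tfdp1, and none of these was called. Cks1b, the Cdk-binding subunit and the highest of all at 128.7 and 129.8 FPKM in WT, was at 134 and 98.5 FPKM in Calu-KO.

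DNA replication genes, which are expressed earlier in the cycle, were less shifted in their median. Of 44 tested, 0 were called in either direction, 15 were higher and 5 lower at an unadjusted p under 0.05 (background 12.0% and 12.7%), and the median log2 change was 0.15. Separated upward were 23 and downward 10 (background 32.0% and 29.7%). Rrm2, the ribonucleotide reductase subunit and the most abundant, was at 147 and 151 FPKM in WT and 292 and 233 FPKM in Calu-KO (log2 change 0.80 ± 0.15, adjusted p = 0.0689). The difference in median from the mitosis genes was not tested. Of 12 tested genes of quiescence and cell-cycle exit, 3 were separated upward and 2 downward, shares no higher than the 32.0% and 29.7% of all tested genes (median 0.12), and 0 were called. Ccng1, the most abundant, was at 42.8 and 47.8 against 44.1 and 57.8 FPKM.

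Exons of 5 members shared over 10% of their bases with a gene on the opposite strand, namely Kif20a (29.3%, with Cdc23), Kif4 (15.1%, with Pdzd11), Ncapg (13.4%, with Lcorl), Ccna2 (12.5%, with Exosc9) and Prc1 (11.1%, with Rccd1). Whether counting used strand is unstated, so reads of these pairs cannot be told apart, and the values of the 5 genes are less certain than the others.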

How the data were processed

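Total RNA of 2 WT and 2 Calu-KO samples was sequenced. Per the submitters' processing notes, reads were aligned with HISAT2 2.0.5 to mm10. Counter, annotation and strand setting were not given in the sources used here. Expression was deposited by the authors as 1 table of FPKM values, already scaled between libraries. FPKM times gene length gave whole multiples for 100% of values (tolerance 0.01 reads), from which reads per gene were recovered.

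Genes averaging 1 FPKM or more were tested on log2(FPKM + 1), a scale that understates changes of low genes, with limma 3.58.1 in R 4.3.3 (lmFit; eBayes with a prior that depends on intensity). Tests were two-sided, with Benjamini-Hochberg adjustment over all 11885 genes, threshold 0.05. An exact permutation test of 2 against 2 cannot go below p = 0.333. Lengths came from GENCODE M21 and promoters from RefSeq. Trends were fitted with mgcv 1.9.3 over 10183 genes. The steps were tested on simulated data.

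The members and lists were chosen with earlier results of these data known. All 45 members are named. From each other list the genes past the threshold and the most abundant gene are named, with Calu as the targeted gene. Cdkn1b was named outside this rule, after its values were seen. Alternatives were other pseudocounts, filters, scaling and priors, a replicate block, libraries left out, and 2 added after the data were seen.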

Additional observations from a re-analysis of the deposited data

How the results depend on the processing

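Over 12 alternatives, 31 of 45 members kept their direction under all of them, and 14 changed sign under at least 1 (32 of 540 pairs). Rescaling the columns by total reads moved the median of all genes from 0.0072 to -0.088 and that of the members to 0.15, with 29 above 0. It turned Ccnb2 (-0.051), Bub1 (-0.067), Cenpa (-0.021), Birc5 (-0.063), Cdca8 (-0.089), Tpx2 (-0.0073) and Ncaph (-0.070), and left 4 members below both WT libraries. With trends removed, Aurka (0.079), Bub1 (-0.14), Ube2c (0.10), Aurkb (0.085), Kif22 (0.043) and Tpx2 (-0.023) turned, and 3 members lay below both WT libraries. Without WT replicate 1, Ccnb2 (-0.061), Cdca8 (-0.049) and Ncaph (-0.017) turned, and without WT replicate 2, Aurka (0.075) and Bub1b (0.0064). Without Calu-KO replicate 1, Ccnb2 (-0.064), Bub1b (0.16), Cenpa (-0.18), Birc5 (-0.19), Cdca8 (-0.12) and Ncaph (-0.0018) turned. Without Calu-KO replicate 2, Plk1 (0.012), Aurka (0.11), Bub1 (-0.083), Cdc20 (0.053), Ube2c (0.21), Aurkb (0.30), Kif22 (0.033) and Tpx2 (-0.010) turned. The range over the 4 leave-one-out fits reached 0.18 for Ccnb2, -0.36 for Plk1, -0.13 for Aurka, -0.17 for Bub1b, -0.42 for Cdc20, -0.44 for Ube2c, 0.35 for Cenpa, -0.33 for Aurkb, 0.28 for Birc5 and -0.15 for Kif22 on the other side. The cause was not tested.

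Members called were 0 higher and 0 lower from the deposited values and under 8 of the alternatives. Leaving out each library gave 0 to 26 higher and 0 to 7 lower, with 24 to 39 above and 1 to 11 below both WT libraries over all settings. Voom gave 6 higher and trend removal 11. For other mitosis genes the 1 call fell to 0 with no filter, rescaling, a constant prior and the replicate block; leave-one-out fits gave 0 to 46 higher and 0 to 14 lower, voom 7 and trend removal 12 higher. For replication genes leave-one-out fits gave 0 to 19 higher and 0 to 10 lower, voom 2 higher, and trend removal 10 higher and 1 lower. Over all genes, 112 higher and 217 lower became 0 and 0 with no filter (24462 genes tested), 45 higher on rescaling, 8 to 2926 higher and 34 to 2805 lower in leave-one-out fits, 361 and 469 with voom, and 644 and 836 with trends removed. Fits without a library of a group assume that the lone library varies like the other group.

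The difference between the WT libraries and that between the Calu-KO libraries correlated at r = 0.015 over 11885 genes. The Calu-KO difference also followed transcript length, so this value cannot show whether same-numbered libraries were paired. The labels do not say. With the replicate block 181 genes were called higher over all genes, and 0 members. Count-model alternatives planned at the start were not run, because the deposited unit is FPKM. The lowest value of a member rested on 486 reads, and the part of depth in the calls was not tested.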

Other observations

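Condensin II, cohesin and their regulators made up a group of further mitosis genes with 1 direction. Cohesin holds sister chromatids together from S phase to anaphase, and condensin II acts on chromosomes from early prophase. All 12 genes listed were above both WT libraries in both Calu-KO libraries, where the background was 32.0%, with a median log2 change of 0.41 (0.17 to 0.60), and 8 had an unadjusted p under 0.05, but 0 were called. Rad21, the cohesin kleisin and the most abundant, was at 93.2 and 96.8 FPKM in WT and 134 and 139 FPKM in Calu-KO (log2 change 0.52 ± 0.11, SE, limma adjusted p = 0.0808). Their coding lengths ran from 792 to 4518 bases, with a median of 3672. Of all tested genes of at least 3000 coding bases, 51.1% were separated upward, and their median was also higher in Calu-KO replicate 2. The part of length was not tested in this group.

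Cdkn1b, which encodes the Cdk inhibitor p27 of resting cells, was chosen after its values were seen. It was at 16.1 and 16.2 FPKM in WT and 24.8 and 25.8 FPKM in Calu-KO (log2 change 0.61, limma adjusted p = 0.0571). Its value and those of Mki67 and Foxm1 were all higher in both Calu-KO libraries. Among the 12 tested genes of quiescence and cell-cycle exit, Cdkn1b had the largest log2 change and the lowest adjusted p. The median of these 12 was 0.12, with 3 separated upward, 2 downward and 7 overlapping (all tested genes 32.0% upward and 29.7% downward).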
